A study of Hordeum vulgare with 18 samples.

Results

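The 304 genes described here lie at the end of barley chromosome 1H by the order of their identifiers, from HORVU1Hr1G075000 to HORVU1Hr1G095430. They were chosen by 2 values, a serial number of 75000 or more in a chromosome 1H identifier and a sum of at least 180 counts over the 18 libraries. The table held 463 identifiers from that serial number on, of which 159 had fewer than 180 counts, and the 304 members compare with 13626 genes in all and 1758 genes of chromosome 1H. All 304 members passed the filter on low counts, as did 31 of the 159 genes below the count limit. Just outside the count limit, HORVU1Hr1G091010 had 176 counts and HORVU1Hr1G078000 had 179 counts, and just inside it HORVU1Hr1G080180 had 184 counts and HORVU1Hr1G083390 had 187 counts. Their log2 fold changes of 10_11 over Karl, averaged over 3 days, were 2.96, 0.20, 0.03 and -0.11 in that order. Of these genes only HORVU1Hr1G091010, which is not a member, had an edgeR adjusted p under 0.05 (0.0207). The last gene before the serial limit was HORVU1Hr1G074960, with 805 counts, and the first member, HORVU1Hr1G075000, had 192 counts.

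RNA from flag leaves was measured by MARS-seq, which reads short tags of transcript 3′ ends. The leaves came from 2 barley (Hordeum vulgare) lines, 10_11 and Karl, at 7, 14 and 21 d after anthesis, and each line and day had 3 libraries. The 6 groups are 10_11 at 7 d, 14 d and 21 d and Karl at 7 d, 14 d and 21 d. Plants of both lines were grown in a glasshouse in randomized blocks under a photoperiod extended to 16 h, with the same fertilizer and potassium nitrate for all pots until anthesis. A sample pooled at least 10 flag leaves, each from a shoot tagged at anthesis, and the 3 samples of a group are described as independent, so p-values measure the spread between pooled samples. Replicates carry the labels 1 to 3 at 7 d and A to C at 14 d and 21 d, and values below follow that order.

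The flag leaf is the last leaf below the cereal ear. During grain filling it passes from photosynthesis to senescence, when its proteins are broken down and their nitrogen moves to the grain. 10_11 is known as a line bred to be near-isogenic to Karl, with leaves that senesce earlier. Identifiers of this kind number genes along a chromosome. They carry no gene names in the sources used here, so the genes are given by identifier, no role is assigned to any of them, and the leaf label could not be checked against marker genes.

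The libraries at 7 d held 353982 to 947762 counts and those at 14 d and 21 d 1058777 to 3231258 counts, so levels at 7 d are the least precise and every comparison with 7 d also compares shallower with deeper libraries. A gene is called when its adjusted p from edgeR's quasi-likelihood test, with Benjamini-Hochberg adjustment over all 9973 genes tested, is under 0.05. With every library thinned to 353982 counts, 190 members passed the filter, of which 63 were called between 21 d and 7 d in 10_11 and 42 in Karl. The 14 d library labelled 10_11 replicate C lay nearer to Karl than to 10_11 at most members that differed between the lines. At 5 members that differed between the lines when the 7 d and 21 d libraries were fitted alone, its median position was -0.0073 on a scale on which the Karl mean is 0 and the 10_11 mean is 1. 10_11 14 d replicates A and B had 1.06 and 1.02 on that scale, and Karl 14 d replicates A, B and C had 0.128, 0.0554 and -0.112. At the 13 members called between the lines at 14 d without it, it was nearer to the Karl mean than to the mean of 10_11 replicates A and B at 12, and within the Karl range at 3. At the 15 called over the 3 days without it, these numbers were 13 and 5. Both sets were picked with 10_11 replicates A and B and the same Karl libraries, so nearness to Karl is partly built into these counts. The 5 members above were picked without any 14 d library. Whether its label is right was not tested. It is kept as labelled, and the members called between the lines are given with and without it.

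Levels of the members spanned a wide range. CPM are counts relative to the library total, scaled by the trimmed mean of M-values (TMM). The mean over all libraries ran from 6.19 to 1053 CPM with a median of 25.6 CPM, and 56 members lay above 100 CPM and 40 below 10 CPM. The members took 1.64 ± 0.022% of all counts at 7 d, 1.88 ± 0.045% at 14 d and 2.50 ± 0.078% at 21 d in 10_11, and 1.62 ± 0.035%, 1.98 ± 0.065% and 2.23 ± 0.084% on the same days in Karl (SD, n = 3 each). At 21 d the share was 2.42 to 2.58% in 10_11, above the 2.14 to 2.30% in Karl. Over the members the median log2 fold change of 10_11 over Karl at 21 d was 0.001, and 153 of the 304 were positive. The higher share was thus not a higher level of most members. Shares of other gene sets were not compared.

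Few members differed between the lines. Log2 fold changes of lines are 10_11 over Karl, and the value after the ± of a log2 fold change is its standard error. Averaged over the 3 days, 7 members were higher and 4 lower in 10_11, 11 members in all or 3.62%, where 1.29% of all genes tested were called, 75 of them higher and 54 lower. Among other genes with at least 180 counts the share was 1.13%, and on the rest of chromosome 1H it was 0.708% (6 of 847 genes). When the 14 d library labelled 10_11 replicate C was left out, 10 members were higher and 5 lower, 4.93% of members, against 2.28% of all genes and 1.42% on the rest of chromosome 1H. Leaving out 10_11 21 d replicate B gave 18 members, against 2.74% of all genes. DESeq2 also called 18 of 304 members, against 1.67% of 13614 genes. That set includes low-count genes that the edgeR filter left out, so its share is not like the edgeR shares. With thinned counts edgeR called 4 of 190 members, against 1.1% of 5375 genes. The stretch was proposed with line differences of these data in view, so these shares are a description. The median over all members was 0.01, against -0.01 over all genes tested.

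On single days the counts were smaller. At 7 d 1 member was called, HORVU1Hr1G087110, higher in 10_11, against 0.0602% of all genes, and none was called without any 1 of the 6 libraries of that day. At 7 d 3 members were called without the 14 d library labelled 10_11 replicate C, against 0.414% of all genes. At 14 d edgeR called 0 members and 0.0501% of all genes. An unadjusted p under 0.05 was reached by 49 members at 14 d (16.1%, against 13.5% of all genes), and DESeq2 called 8, against 0.927% of all genes. At 14 d 7 members were higher and 6 lower without the 14 d library labelled 10_11 replicate C, against 3% of all genes, and without 10_11 21 d replicate B 8 members were called, against 1.33%. At 21 d 5 members were higher and 1 lower, 1.97% of members against 1.01% of all genes. That count was 10 (3.29%, against 1.42% of all genes) without the 14 d library labelled 10_11 replicate C and 12 without 10_11 21 d replicate B (against 2.47% of all genes). It was 0 without Karl 21 d replicate B and 1 without Karl 21 d replicate C. For counts given here without a share of all genes, whether other genes changed alike was not tested.

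**Figure D1:**
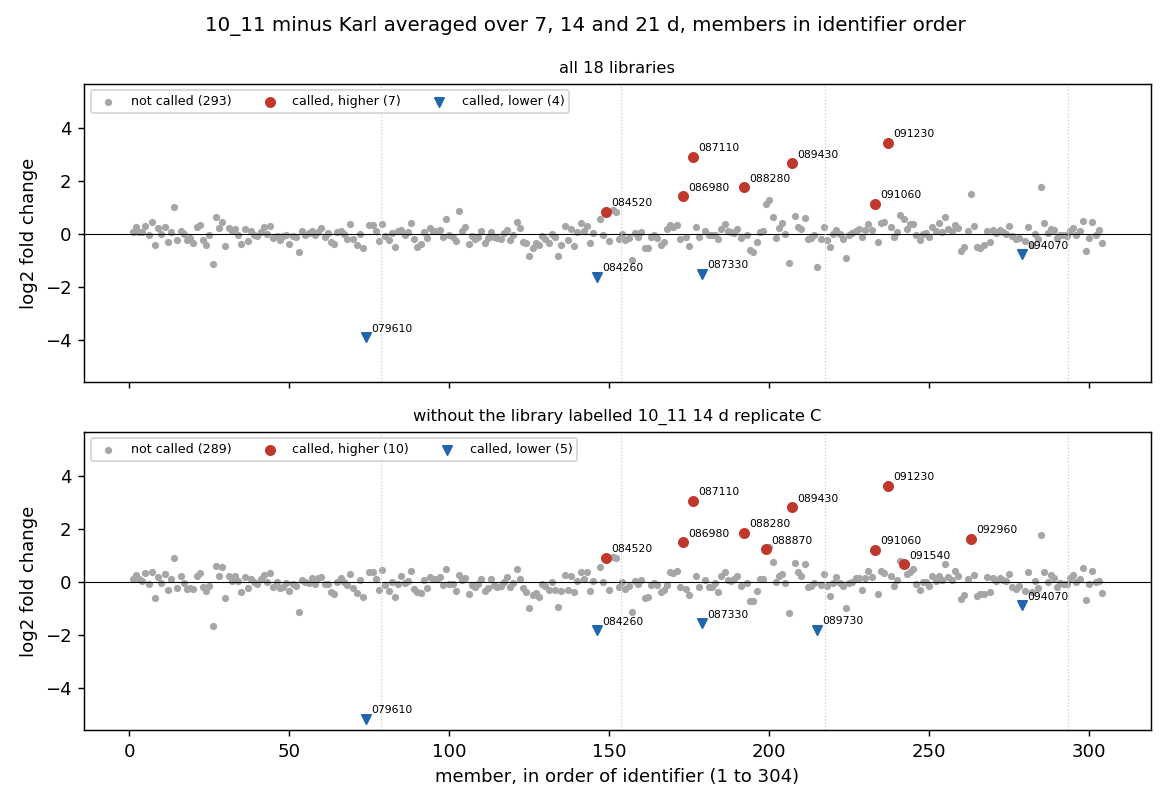
Log2 fold change of 10_11 over Karl averaged over 7, 14 and 21 d (vertical axis) for the 304 members in identifier order (horizontal axis), with all 18 libraries above and without the 14 d library labelled 10_11 replicate C below. Red circles mark members called higher (7 above, 10 below), blue triangles members called lower (4 and 5), grey points the rest, and dotted lines part stretches of 5000 serial numbers; most members lie near 0 and the called ones are spread from HORVU1Hr1G079610 to HORVU1Hr1G094070.

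Of the members called over the 3 days, HORVU1Hr1G079610 had the largest fold change in size and was nearly silent in 10_11. It had 0, 0 and 3.43 CPM at 7 d, then 0.301, 0.54 and 18.9 CPM at 14 d, then 0.879, 0 and 0.602 CPM at 21 d in 10_11. Karl leaves had 20.3, 12.9 and 23.2 CPM at 7 d, then 33, 16.2 and 23.9 CPM at 14 d, then 16.3, 23.7 and 17.2 CPM at 21 d. Every 10_11 library but the one labelled 14 d replicate C lay below every Karl library. The averaged log2 fold change was -3.88 ± 0.70 (edgeR adjusted p = 0.00606), -5.15 ± 0.39 (edgeR adjusted p = 7.49e-08) without that library and -4.95 without 10_11 7 d replicate 3. The groups of single days held few counts in 10_11: at 7 d the Karl level was 30.3 times that of 10_11 (95% counting interval 5.11 to 1229), and at 21 d 40.1 times (10.9 to 335). With the library left out, HORVU1Hr1G079610 was also called at 7 d, with -4.71 ± 0.83 (edgeR adjusted p = 0.0083), at 14 d, with -5.69 ± 0.63 (edgeR adjusted p = 3.56e-05), and at 21 d, at -5.06 ± 0.61 (edgeR adjusted p = 0.000102).

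HORVU1Hr1G091230 was higher in 10_11 and fell with age in it. It had 58.5, 60.8 and 89.3 CPM at 7 d, then 31.6, 32.4 and 1.97 CPM at 14 d, then 12.3, 9.71 and 11.4 CPM at 21 d in 10_11. Karl leaves had 2.71, 5.54 and 9.3 CPM at 7 d, then 0.465, 3.16 and 1.29 CPM at 14 d, then 1.25, 0.719 and 1.66 CPM at 21 d. On each day all 10_11 libraries lay above the Karl libraries, except that the 14 d library labelled replicate C lay within the Karl range. The averaged log2 fold change was 3.46 ± 0.46 (edgeR adjusted p = 0.000248), and 3.64 ± 0.26 (edgeR adjusted p = 3.5e-08) without that library. Between 21 d and 7 d the log2 fold change was -2.60 ± 0.62 (edgeR adjusted p = 0.00389) in 10_11 and -2.25 ± 1.11 (edgeR adjusted p = 0.16) in Karl, and the difference between the lines, -0.35 ± 1.66 (edgeR adjusted p = 0.99), was not called.

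HORVU1Hr1G087110 was higher in 10_11 and rose with age in both lines. It had 78.7, 59.6 and 137 CPM at 7 d, then 102, 104 and 17.7 CPM at 14 d, then 199, 328 and 173 CPM at 21 d in 10_11. Karl leaves had 5.42, 1.85 and 4.65 CPM at 7 d, then 21.9, 11.3 and 16.8 CPM at 14 d, then 57.6, 37 and 57.1 CPM at 21 d. The lines did not overlap at 7 d or 21 d, and the 14 d library labelled 10_11 replicate C lay between the highest and the second Karl library. The averaged log2 fold change was 2.92 ± 0.33 (edgeR adjusted p = 8.33e-05), and 3.07 ± 0.23 (edgeR adjusted p = 5.24e-08) without that library. By day it was 4.39 ± 0.72 (edgeR adjusted p = 0.0296) at 7 d, 2.16 ± 0.50 (edgeR adjusted p = 0.0887) at 14 d and 2.21 ± 0.47 (edgeR adjusted p = 0.0293) at 21 d, and without that library it was 4.39 ± 0.49 (edgeR adjusted p = 8.43e-05), 2.62 ± 0.36 (edgeR adjusted p = 0.000412) and 2.21 ± 0.31 (edgeR adjusted p = 0.000626) on those days. The call at 7 d was lost without any 1 of the 6 libraries of that day (edgeR adjusted p = 0.0509 to 0.166). The call at 21 d was lost without Karl 21 d replicates A, B or C or 10_11 21 d replicate A (edgeR adjusted p = 0.0531 to 0.159), while the averaged call was kept under all alternatives. Between 21 d and 7 d the log2 fold change was 1.40 ± 0.48 (edgeR adjusted p = 0.0363) in 10_11 and 3.58 ± 0.72 (edgeR adjusted p = 0.0018) in Karl. The rise in 10_11 was not called without 10_11 7 d replicates 1 or 2 or 10_11 21 d replicate B (edgeR adjusted p = 0.107 to 0.161).

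Over the 3 days together, no member kept all 10_11 libraries on one side of all Karl libraries, where 0.13% of all genes did so. Without the 14 d library labelled 10_11 replicate C, these 3 members did, HORVU1Hr1G079610 lower and HORVU1Hr1G087110 and HORVU1Hr1G091230 higher in 10_11, where 0.551% of all genes did so.

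A further 5 members were called higher in 10_11 over the 3 days. HORVU1Hr1G089430 had 18.2, 26.6 and 3.43 CPM at 7 d, then 25.3, 14 and 4.72 CPM at 14 d, then 7.03, 11.3 and 13.8 CPM at 21 d in 10_11. Karl leaves had 1.36, 0 and 1.55 CPM at 7 d, then 2.79, 4.06 and 0 CPM at 14 d, then 5.63, 3.59 and 2.77 CPM at 21 d. On each day the lines did not overlap, with replicate C of 10_11 at 14 d included. The averaged log2 fold change was 2.68 ± 0.47 (edgeR adjusted p = 0.00469), and 2.82 ± 0.41 (edgeR adjusted p = 0.000339) without that library. At 7 d, where Karl held 2 counts in all, the ratio was 18.9 (95% counting interval 4.82 to 163). The averaged call was kept under each alternative that tested it, but with thinned counts it did not pass the filter on low counts. The averaged calls of HORVU1Hr1G079610, HORVU1Hr1G091230, HORVU1Hr1G087110 and HORVU1Hr1G084520 were kept under all alternatives.

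HORVU1Hr1G091060, one of the more abundant of these genes, had 289, 269 and 409 CPM at 7 d, then 224, 264 and 135 CPM at 14 d, then 93.2, 34 and 72.2 CPM at 21 d in 10_11. Karl leaves had 96.3, 49.9 and 126 CPM at 7 d, then 45.1, 114 and 76.3 CPM at 14 d, then 33.8, 51.4 and 81.5 CPM at 21 d. The lines stood apart at 7 d and 14 d and overlapped at 21 d, when the 10_11 level had come down. Over the 3 days the log2 fold change was 1.16 ± 0.24 (edgeR adjusted p = 0.0171), and 1.23 ± 0.24 (edgeR adjusted p = 0.00626) without the 14 d library labelled 10_11 replicate C. HORVU1Hr1G091060 fell with age in 10_11, by a log2 fold change of -2.27 ± 0.43 (edgeR adjusted p = 0.000682) between 21 d and 7 d, and had -0.71 ± 0.43 (edgeR adjusted p = 0.255) in Karl, a difference of -1.55 ± 0.60 (edgeR adjusted p = 0.571) that was not called. The line call was lost with thinned counts (edgeR adjusted p = 0.101).

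HORVU1Hr1G084520 had 169, 184 and 113 CPM at 7 d, then 181, 237 and 111 CPM at 14 d, then 238, 233 and 242 CPM at 21 d in 10_11. Karl leaves had 127, 60.9 and 85.2 CPM at 7 d, then 61.4, 99.7 and 72.4 CPM at 14 d, then 171, 139 and 165 CPM at 21 d. The lines stood apart at 14 d and 21 d, and at 7 d 1 library of 10_11 lay below the highest of Karl. Averaged, the log2 fold change was 0.85 ± 0.17 (edgeR adjusted p = 0.011), and 0.93 ± 0.15 (edgeR adjusted p = 0.00136) without the 14 d library labelled 10_11 replicate C.

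HORVU1Hr1G086980 had 34.3, 25.3 and 27.5 CPM at 7 d, then 26.2, 25.9 and 15 CPM at 14 d, then 11.4, 37.2 and 20.5 CPM at 21 d in 10_11. Karl leaves had 10.8, 0 and 4.65 CPM at 7 d, then 8.83, 5.41 and 14.2 CPM at 14 d, then 13.8, 15.8 and 13.3 CPM at 21 d. It was higher in every 10_11 library at 7 d and 14 d, and the lines overlapped at 21 d. Its log2 fold change over the days was 1.43 ± 0.29 (edgeR adjusted p = 0.0156), with an edgeR adjusted p of 0.00659 without the 14 d library labelled 10_11 replicate C, and the call was lost with thinned counts (edgeR adjusted p = 0.0623).

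HORVU1Hr1G088280 had 12.1, 21.5 and 6.87 CPM at 7 d, then 14.5, 17.8 and 6.3 CPM at 14 d, then 26.4, 59.9 and 15.6 CPM at 21 d in 10_11. Karl leaves had 12.2, 0 and 12.4 CPM at 7 d, then 5.11, 1.8 and 3.88 CPM at 14 d, then 3.75, 3.23 and 8.87 CPM at 21 d. The lines overlapped at 7 d and stood apart at 14 d and 21 d, and 10_11 21 d replicate B was the highest library. The log2 fold change was 2.69 ± 0.60 (edgeR adjusted p = 0.0371) at 21 d, 1.99 without 10_11 21 d replicate B, and 1.76 ± 0.39 (edgeR adjusted p = 0.0275) over the 3 days. Without the 14 d library labelled 10_11 replicate C these were 2.69 ± 0.57 (edgeR adjusted p = 0.0216) and 1.87 ± 0.38 (edgeR adjusted p = 0.00991). The call at 21 d was lost without Karl 14 d replicate C, any 1 of the 3 Karl 21 d libraries or 10_11 21 d replicates A or B (edgeR adjusted p = 0.051 to 0.194), and with the 6 libraries of that day alone (0.154). The averaged call was lost without Karl 14 d replicates B or C, Karl 21 d replicates A or B, 10_11 7 d replicate 2 or 10_11 14 d replicates A or B (edgeR adjusted p = 0.0544 to 0.17). Both calls were also lost when the replicate labels were added to the fit as a block (edgeR adjusted p = 0.0846 at 21 d and 0.0796 averaged).

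**Figure D2:**
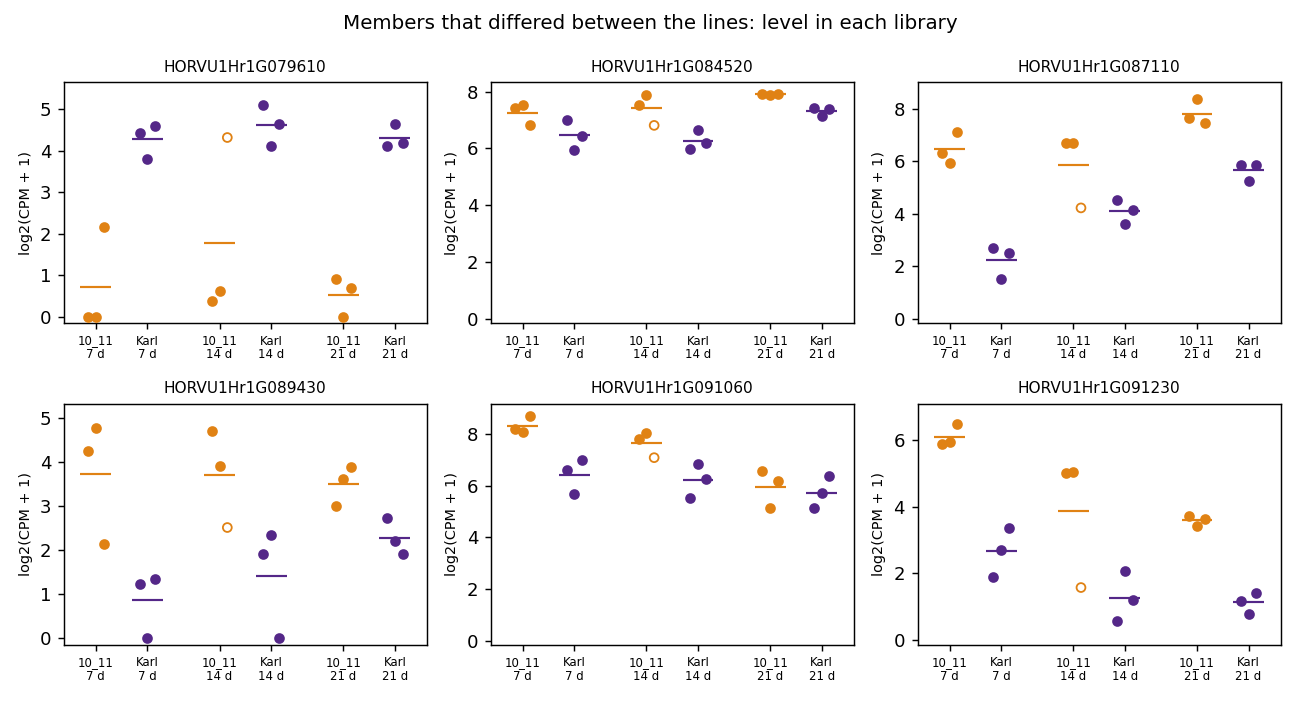
Level of 6 members called over the 3 days in each of the 18 libraries, as log2(CPM + 1), with 10_11 in orange left of Karl in purple on each day. Bars are means of the log2 values, and the open circle is the 14 d library labelled 10_11 replicate C, which at HORVU1Hr1G079610 and HORVU1Hr1G091230 lies among the Karl libraries.

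Besides HORVU1Hr1G079610, 3 members were called lower in 10_11 over the 3 days, all with smaller differences. HORVU1Hr1G084260 had 5.12, 5.4 and 13.4 CPM at 14 d and 5.27, 7.28 and 4.21 CPM at 21 d in 10_11, against 29.8, 18.5 and 30.4 CPM and 22.5, 21.2 and 8.31 CPM in Karl. The lines stood apart on both days and overlapped at 7 d, with 6.05, 2.53 and 0 CPM in 10_11 and 5.42, 9.23 and 12.4 CPM in Karl. Its averaged log2 fold change was -1.60 ± 0.34 (edgeR adjusted p = 0.0186), and -1.80 ± 0.31 (edgeR adjusted p = 0.00229) without the 14 d library labelled 10_11 replicate C. The call was lost without Karl 7 d replicate 3 (edgeR adjusted p = 0.0735), without 10_11 7 d replicate 2 (0.0702) and with thinned counts (0.0826).

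HORVU1Hr1G087330 had 6.05, 1.27 and 0 CPM at 7 d, then 7.23, 2.7 and 7.08 CPM at 14 d, then 0.879, 1.62 and 3.01 CPM at 21 d in 10_11. Karl leaves had 5.42, 9.23 and 7.75 CPM at 7 d, then 12.1, 9.47 and 12.9 CPM at 14 d, then 9.38, 9.7 and 5.54 CPM at 21 d. The lines stood apart at 14 d and 21 d at these low levels and overlapped at 7 d. Its averaged log2 fold change was -1.49 ± 0.33 (edgeR adjusted p = 0.0278), and -1.54 ± 0.35 (edgeR adjusted p = 0.0209) without the 14 d library labelled 10_11 replicate C. The call was lost without any 1 of 9 libraries (edgeR adjusted p = 0.0526 to 0.103), which were Karl 7 d replicates 2 and 3, Karl 14 d replicates A and C, Karl 21 d replicates A and B, 10_11 7 d replicates 2 and 3 and 10_11 21 d replicate A. It was also lost when the replicate labels were added to the fit as a block (edgeR adjusted p = 0.0727).

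HORVU1Hr1G094070 had 28.2, 20.3 and 20.6 CPM at 7 d, then 11.4, 15.1 and 22 CPM at 14 d, then 14.9, 26.7 and 20.5 CPM at 21 d in 10_11. Karl leaves had 32.5, 24 and 32.5 CPM at 7 d, then 38.1, 31.6 and 25.9 CPM at 14 d, then 31.9, 35.2 and 51 CPM at 21 d. It was lower in every 10_11 library at 14 d and 21 d, and the lines overlapped at 7 d. Its averaged log2 fold change was -0.76 ± 0.17 (edgeR adjusted p = 0.0328), and -0.86 ± 0.17 (edgeR adjusted p = 0.00799) without the 14 d library labelled 10_11 replicate C. The call was lost without any 1 of 10 libraries (edgeR adjusted p = 0.0611 to 0.097), which were Karl 7 d replicates 1 and 3, Karl 14 d replicate A, Karl 21 d replicate C, 10_11 7 d replicates 2 and 3, 10_11 14 d replicates A and B and 10_11 21 d replicates A and C, and with thinned counts (0.315). It was also lost when the replicate labels were added to the fit as a block (edgeR adjusted p = 0.0699).

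At 21 d a further 4 members were called that were not called over the 3 days, 1 lower and 3 higher in 10_11. HORVU1Hr1G089380 was nearly absent from 10_11 leaves at 21 d. It had 4.39, 1.62 and 0.602 CPM in 10_11 at 21 d, against 15, 19.8 and 34.9 CPM in Karl, and the lines did not overlap. On the earlier days they did, with 48.4, 77.3 and 41.2 CPM at 7 d and 28.9, 36.7 and 45.6 CPM at 14 d in 10_11, against 62.4, 46.2 and 115 CPM and 10.7, 37 and 29.1 CPM in Karl. The log2 fold change was -3.47 ± 0.65 (edgeR adjusted p = 0.0139) at 21 d, -3.47 ± 0.65 (edgeR adjusted p = 0.00832) without the 14 d library labelled 10_11 replicate C, -4.37 without 10_11 21 d replicate A and -2.51 with thinned counts. The call was lost without Karl 21 d replicate B (edgeR adjusted p = 0.054), Karl 21 d replicate C (0.051) or 10_11 21 d replicate C (0.0572), with the 6 libraries of that day alone (0.064) and with thinned counts (0.183).

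HORVU1Hr1G084800 had 20.2, 42.1 and 30.1 CPM in 10_11 at 21 d, against 8.13, 6.47 and 6.1 CPM in Karl. The lines did not overlap at 21 d, and at 7 d and 14 d no library of either line reached 5 CPM. At 21 d the log2 fold change was 2.16 ± 0.41 (edgeR adjusted p = 0.015), and 2.16 ± 0.41 (edgeR adjusted p = 0.01) without the 14 d library labelled 10_11 replicate C. The call was lost without Karl 21 d replicate B (edgeR adjusted p = 0.108) or C (0.067).

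HORVU1Hr1G081240 had 845, 864 and 93.3 CPM in 10_11 at 21 d, against 159.5, 33.1 and 36 CPM in Karl. The lines overlapped, since 10_11 replicate C lay below Karl replicate A. The log2 fold change was 2.99 ± 0.67 (edgeR adjusted p = 0.0385) at 21 d, 2.99 ± 0.67 (edgeR adjusted p = 0.0308) without the 14 d library labelled 10_11 replicate C, and 4.12 without Karl 21 d replicate A. The call was lost without Karl 14 d replicate C, Karl 21 d replicates B or C, 10_11 7 d replicate 2 or 10_11 21 d replicate A (edgeR adjusted p = 0.052 to 0.182), with the 6 libraries of the day alone (0.242) and with thinned counts (0.0779).

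HORVU1Hr1G075560, among the most abundant members, had 895, 808 and 791 CPM in 10_11 at 21 d, against 435, 411 and 495 CPM in Karl. All 3 libraries of 10_11 lay above those of Karl. The log2 fold change was 0.89 ± 0.17 (edgeR adjusted p = 0.0137) at 21 d, -0.01 at 7 d and -0.03 at 14 d. Without the 14 d library labelled 10_11 replicate C it was 0.89 ± 0.17 (edgeR adjusted p = 0.0116) at 21 d. The call was lost without Karl 21 d replicate A (edgeR adjusted p = 0.0635) or B (0.0955), with the 6 libraries of the day alone (0.141) and with thinned counts (0.083).

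Without the 14 d library labelled 10_11 replicate C, 23 members were called on some day or over the 3 days. Among them were all 15 named so far. No such combined count was made over all genes. Calls over all genes rose too without that library, from 5 to 311 at 14 d and from 129 to 237 over the 3 days. The clearest of the 8 members not among those 15 was HORVU1Hr1G089730. In 10_11 at 14 d it had 14.2, 15.1 and 105 CPM, against 139, 123 and 134 CPM in Karl. Replicates A and B of 10_11 lay far below Karl and the library labelled replicate C close to it. Without that library the log2 fold change at 14 d was -3.17 ± 0.36 (edgeR adjusted p = 4.42e-05), and with it -1.56 ± 0.52 (edgeR adjusted p = 0.192). On the other days the difference had the same sign, -1.24 at 7 d and -0.97 at 21 d. The other 7 were HORVU1Hr1G080320 and HORVU1Hr1G090770, lower in 10_11 at 14 d, HORVU1Hr1G088870, higher at 14 d and over the 3 days, HORVU1Hr1G091540 and HORVU1Hr1G092960, higher over the 3 days, HORVU1Hr1G081410, higher at 21 d, and HORVU1Hr1G089180, higher at 14 d and lower at 21 d.

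Along the identifier order the line calls lay in uneven shares, and the difference between stretches was not tested. In stretches of 5000 serial numbers, the averaged comparison called 1 of 78 members from HORVU1Hr1G075000 to HORVU1Hr1G079930 (1.28%) and 2 of 75 from HORVU1Hr1G080040 to HORVU1Hr1G084970 (2.67%). It called 5 of 64 from HORVU1Hr1G085170 to HORVU1Hr1G089840 (7.81%), 3 of the 76 members that follow (3.95%) and 0 of the last 11. Without the 14 d library labelled 10_11 replicate C the counts were 1, 2, 7, 5 and 0. With all libraries, no neighbouring members were called in the same direction over the 3 days.

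Between 21 d and 7 d many more members were called than between the lines. They changed in both directions, and in about the share seen over all genes. The 7 d libraries are shallower and carry other replicate labels than the later ones. In comparisons with 7 d, age and any difference between these sets of libraries cannot be told apart. Between 21 d and 14 d, whose labels are alike, 57 members were called in 10_11 and 6 in Karl, against 6 between the lines at 21 d. Log2 fold changes with age are later over earlier day. Between 21 d and 7 d in 10_11, 42 members rose and 47 fell, 29.3% of members against 29% of all genes tested. In Karl 36 members rose and 37 fell, 24% against 21.2% of all genes. With thinned counts, 63 of 190 members were called in 10_11 and 42 in Karl, against 33.4% and 23% of all genes. The median log2 fold change over members was -0.08 in 10_11 and -0.14 in Karl, against 0.04 and 0.01 over all genes. In a bulk leaf sample, fewer cells of a type and less RNA per cell cannot be told apart.

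In 10_11 more members were called from 14 d to 21 d, and in Karl more from 7 d to 14 d. From 7 d to 14 d, 3 members rose and 3 fell in 10_11 (against 2.43% of all genes), and 22 rose and 18 fell in Karl (13.2%, against 10.6% of all genes). From 14 d to 21 d, 31 rose and 26 fell in 10_11 (18.8%, against 19.9% of all genes), and 3 rose and 3 fell in Karl (1.97%, against 0.973% of all genes). The direct test of line by age, given further on, called 0 members in each interval.

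Several of these counts shifted when libraries were left out, which leaves fewer libraries for the test of every gene. The shifts are thus not read as particular to the members. Where no share of all genes is given below, whether other genes changed alike was not tested. The 6 members of 10_11 from 7 d to 14 d became 1, 3 and 3 without 7 d replicates 1, 2 and 3, 3 without 14 d replicate B and 3 without the 14 d library labelled replicate C (against 0.645% of all genes). The 57 members of 10_11 from 14 d to 21 d became 53 without the 14 d library labelled replicate C (against 17.4% of all genes) and 32 with the libraries of those groups alone. The 40 members of Karl from 7 d to 14 d became 18, 17, 21 and 18 without Karl 7 d replicate 1, 7 d replicate 3, 14 d replicate A and 14 d replicate C. The 6 members of Karl from 14 d to 21 d became 10 without 10_11 21 d replicate B and 0 to 3 without any 1 of 11 other libraries, namely Karl 7 d replicate 1, Karl 14 d replicates A, B and C, Karl 21 d replicates A and C, 10_11 7 d replicates 1 and 2, 10_11 14 d replicates A and B and 10_11 21 d replicate C.

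**Figure D3:**
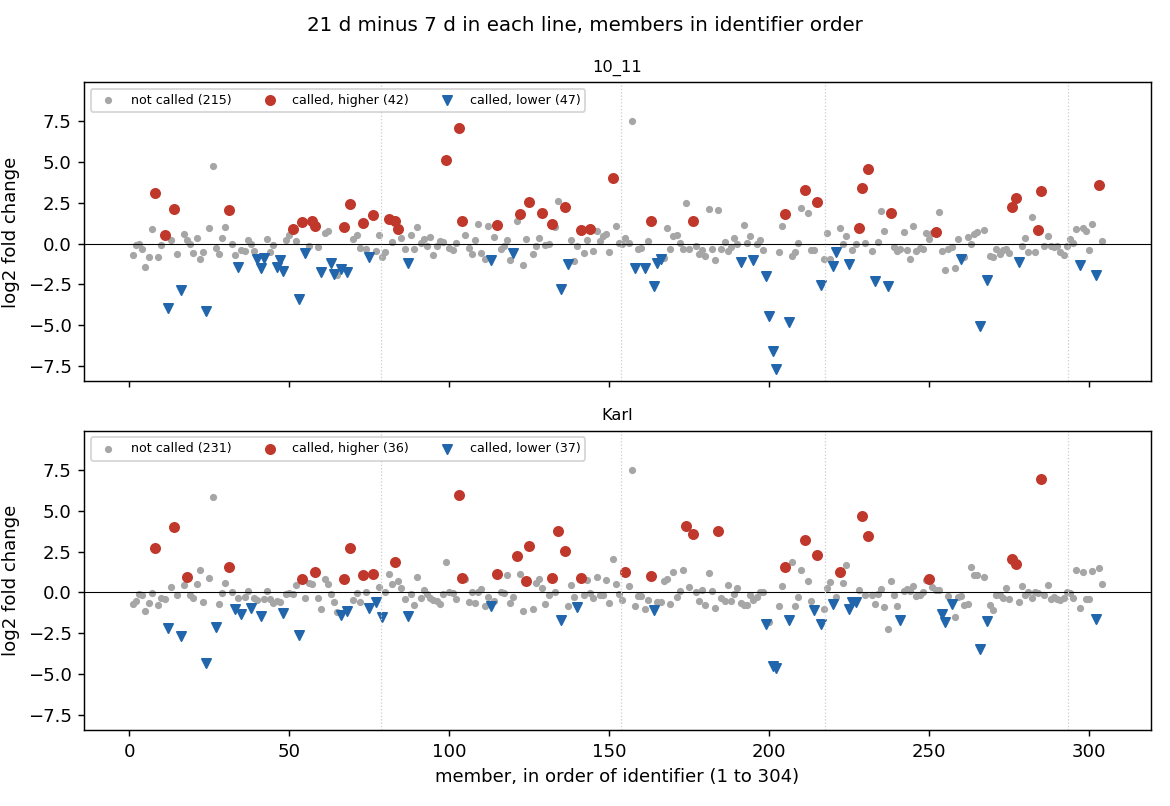
Log2 fold change of 21 d over 7 d (vertical axis) for the 304 members in identifier order (horizontal axis), in 10_11 above and in Karl below. Red circles mark members that rose (42 and 36), blue triangles members that fell (47 and 37), grey points members not called, and dotted lines part stretches of 5000 serial numbers; risers and fallers mix along the order in both lines.

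Many of the members called between 21 d and 7 d were called in both lines, as were many of all genes. In both lines 27 members rose, 64.3% of those in 10_11 and 75.0% of those in Karl, and 23 fell, 48.9% and 62.2%. Over all genes tested, those called in both lines were 50.7% of those that rose in 10_11 and 73% of those in Karl, and 57.3% and 74.2% of those that fell. None was called in opposite directions. From 7 d to 14 d HORVU1Hr1G079200, HORVU1Hr1G088920 and HORVU1Hr1G089180 fell and HORVU1Hr1G089360 and HORVU1Hr1G093890 rose in both lines. From 14 d to 21 d HORVU1Hr1G075580 and HORVU1Hr1G075830 fell and HORVU1Hr1G081410, HORVU1Hr1G089360 and HORVU1Hr1G090820 rose in both. Without the 14 d library labelled 10_11 replicate C, the early rises of HORVU1Hr1G089360 and HORVU1Hr1G093890 in 10_11 were not called (edgeR adjusted p = 0.221 and 0.132), nor was the late fall of HORVU1Hr1G075580 in Karl (0.0515).

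Of the members that reached 20 CPM at 21 d and did not overlap with 7 d, HORVU1Hr1G081410 rose most in both lines. It had 4.04, 0 and 0 CPM at 7 d, then 0.602, 0 and 3.93 CPM at 14 d, then 178, 309 and 75.2 CPM at 21 d in 10_11. Karl leaves had 1.36, 0 and 0 CPM at 7 d, then 5.11, 2.26 and 1.29 CPM at 14 d, then 73.2, 14 and 27.7 CPM at 21 d. It stayed under 5 CPM at 7 d and was higher at 21 d in every library of both lines. The 21 d level was 139 times the 7 d level in 10_11 (95% counting interval 38.2 to 1147), and 64.1 times in Karl (11.4 to 2543), on 2 and 1 counts at 7 d. The log2 fold change was 7.10 ± 1.06 (edgeR adjusted p = 8.45e-05) in 10_11, 11.21 without 10_11 7 d replicate 1, 6.18 without replicate 2 and 6.13 with thinned counts. In Karl it was 5.97 ± 1.31 (edgeR adjusted p = 0.00355), 8.88 without Karl 7 d replicate 1, 5.11 without Karl 21 d replicate A and 4.93 with thinned counts. HORVU1Hr1G094710, which stayed under 20 CPM and was looked at after its values were seen, also rose in both lines. In Karl it had 9.38, 12.6 and 8.31 CPM at 21 d, against 0, 0 and 0 CPM at 7 d (edgeR adjusted p = 0.000638).

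HORVU1Hr1G090820 rose to be one of the most abundant members. It had 82.7, 55.8 and 92.7 CPM at 7 d, then 144, 205 and 124 CPM at 14 d, then 1903, 2137 and 1325 CPM at 21 d in 10_11. Karl leaves had 44.8, 97.9 and 69.7 CPM at 7 d, then 224, 128 and 193 CPM at 14 d, then 1119, 394 and 794 CPM at 21 d. The lines overlapped at 7 d, and within each line the libraries of each later day lay above those of the day before. Between 21 d and 7 d the log2 fold change was 4.57 ± 0.41 (edgeR adjusted p = 6.04e-07) in 10_11 and 3.45 ± 0.39 (edgeR adjusted p = 1.38e-05) in Karl. The 21 d libraries of 10_11 lay above those of Karl, at a log2 fold change of 1.22 ± 0.34 (edgeR adjusted p = 0.0892) that was not called, with or without the 14 d library labelled 10_11 replicate C (edgeR adjusted p = 0.0846 without it).

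HORVU1Hr1G089360 had the highest mean level of all members and rose in both lines. It had 482, 502 and 587 CPM at 7 d, then 731, 825 and 996 CPM at 14 d, then 2089.8, 1817 and 1673 CPM at 21 d in 10_11. Karl leaves had 509, 504 and 625 CPM at 7 d, then 928, 934 and 927 CPM at 14 d, then 1771, 1503 and 1551 CPM at 21 d. Libraries of successive days did not overlap within either line. Between 21 d and 7 d the log2 fold change was 1.83 ± 0.18 (edgeR adjusted p = 1.49e-06) in 10_11 and 1.56 ± 0.18 (edgeR adjusted p = 1.63e-05) in Karl.

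Other members rose steeply in 10_11. HORVU1Hr1G081240 reached 601 ± 439.7 CPM at 21 d, against 16.3 ± 5.95 CPM at 7 d (SD, n = 3 each), a log2 fold change of 5.14 ± 0.83 (edgeR adjusted p = 0.00018). In Karl its change was 1.88 ± 0.77 (edgeR adjusted p = 0.0908), and the difference between the lines was not called, at 3.26 ± 1.15 (edgeR adjusted p = 0.54). HORVU1Hr1G084800 reached 30.8 ± 10.9 CPM at 21 d, against 1.27 ± 2.19 CPM at 7 d on 3 counts, a ratio of 16.3 (95% counting interval 5.44 to 80.0). Its fitted log2 fold change was 4.00 ± 0.67 (edgeR adjusted p = 0.000246), and 8.60 without 10_11 7 d replicate 2. HORVU1Hr1G095410 had 150.3, 16.2 and 137 CPM at 21 d, against 8.07, 12.7 and 0 CPM at 7 d, a log2 fold change of 3.56 ± 0.82 (edgeR adjusted p = 0.00312) that was 4.34 without 10_11 7 d replicate 2. HORVU1Hr1G089500 had 52.7, 29.1 and 49.9 CPM at 21 d, against 6.05, 5.07 and 0 CPM at 7 d, a log2 fold change of 3.31 ± 0.79 (edgeR adjusted p = 0.00411), and it rose in Karl as well, by 3.18 ± 0.82 (edgeR adjusted p = 0.00961). That rise in Karl was 4.17 without Karl 7 d replicate 3 and 2.34 without Karl 21 d replicate C, and was not called with thinned counts (edgeR adjusted p = 0.0527). None of these 4 overlapped between the days in 10_11.

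Of the named members that rose in Karl between these days, 3 were not called in 10_11. HORVU1Hr1G087070 had 21.9, 165 and 20.5 CPM at 21 d, against 5.42, 1.85 and 4.65 CPM at 7 d, and the days did not overlap. Its log2 fold change was 4.07 ± 1.04 (edgeR adjusted p = 0.00927) in Karl and 2.47 ± 0.97 (edgeR adjusted p = 0.0639) in 10_11, and without Karl 21 d replicate B, the highest library, it was 2.34 in Karl (edgeR adjusted p = 0.0808), and 3.39 with thinned counts. HORVU1Hr1G083420 had 13.1, 42.8 and 9.42 CPM at 21 d, against 1.36, 1.85 and 1.55 CPM at 7 d on 3 counts, a ratio of 16.3 (95% counting interval 5.47 to 79.8). In Karl the log2 fold change was 3.78 ± 1.07 (edgeR adjusted p = 0.0171), and the call was lost without Karl 7 d replicate 1 (edgeR adjusted p = 0.0716), Karl 7 d replicate 3 (0.0582) or Karl 21 d replicate B (0.0867), the last of which gave 2.78. HORVU1Hr1G087630 had 25, 32.3 and 8.31 CPM at 21 d, against 2.71, 0 and 1.55 CPM at 7 d on 3 counts, a ratio of 15 (95% counting interval 5.04 to 73.7). The fitted change in Karl was a log2 of 3.77 ± 0.96 (edgeR adjusted p = 0.00893), and 4.61 without Karl 7 d replicate 1. For none of these 3 was the difference between the lines' changes called (edgeR adjusted p = 0.857 for HORVU1Hr1G087070, 0.942 for HORVU1Hr1G083420 and 0.836 for HORVU1Hr1G087630). All 3 overlapped between 14 d and 21 d in Karl, with 55.8, 45.1 and 51.7 CPM for HORVU1Hr1G087070, 19.5, 15.8 and 24.6 CPM for HORVU1Hr1G083420 and 34.4, 18.5 and 16.8 CPM at 14 d for HORVU1Hr1G087630.

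The steepest falls were at neighbouring identifiers. HORVU1Hr1G089180 had 649.7, 341 and 463 CPM at 7 d, then 129, 104 and 39.7 CPM at 14 d, then 2.64, 4.04 and 0.602 CPM at 21 d in 10_11. Karl leaves had 366, 345 and 392 CPM at 7 d, then 19.1, 35.2 and 19.4 CPM at 14 d, then 6.88, 19.4 and 17.2 CPM at 21 d. It was abundant at 7 d in both lines and had lost most of its CPM by 14 d in both. The 10_11 libraries at 21 d were the lowest. Between 21 d and 7 d the log2 fold change was -7.69 ± 0.59 (edgeR adjusted p = 3.38e-07) in 10_11 and -4.63 ± 0.46 (edgeR adjusted p = 7.13e-06) in Karl, and without 10_11 21 d replicate B it was -8.30 in 10_11.

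HORVU1Hr1G088920 also fell in both lines, at a lower level. It had 127, 54.5 and 58.4 CPM at 7 d, then 13.9, 14 and 5.11 CPM at 14 d, then 0.879, 1.62 and 0 CPM at 21 d in 10_11. Karl leaves had 29.8, 46.2 and 44.9 CPM at 7 d, then 3.72, 1.35 and 2.59 CPM at 14 d, then 0, 3.95 and 0 CPM at 21 d. Days 7 and 21 did not overlap in either line. In 10_11 the 7 d level was 105 times the 21 d level (95% counting interval 35.1 to 516), on 3 counts at 21 d. The log2 fold change was -6.59 ± 0.81 (edgeR adjusted p = 1.35e-05) in 10_11, -7.50 without 10_11 21 d replicate B and -5.89 without replicate C. In Karl it was -4.51 ± 0.69 (edgeR adjusted p = 0.000225), -8.86 without Karl 21 d replicate B and -5.41 with thinned counts.

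HORVU1Hr1G088880, between HORVU1Hr1G088870 and HORVU1Hr1G088920, had 9.67, 1.62 and 4.81 CPM at 21 d, against 272, 49.4 and 20.6 CPM at 7 d in 10_11. The days did not overlap, and 7 d replicate 1 was far above the other libraries. Its log2 fold change was -4.45 ± 0.79 (edgeR adjusted p = 0.000407) in 10_11, -2.83 without 10_11 7 d replicate 1 and -5.06 without 10_11 21 d replicate A, and -1.83 ± 0.79 (edgeR adjusted p = 0.11) in Karl. The difference between the lines was not called (edgeR adjusted p = 0.607). HORVU1Hr1G088870 had 74.7, 25.1 and 34.9 CPM at 21 d in 10_11, against 186, 182 and 168 CPM at 7 d. In Karl it had 11.3, 35.2 and 47.1 CPM at 21 d, against 85.4, 122 and 155 CPM at 7 d, and in neither line did the days overlap. Its log2 fold change was -2.01 ± 0.50 (edgeR adjusted p = 0.00566) in 10_11 and -1.93 ± 0.50 (edgeR adjusted p = 0.0102) in Karl. The 4 members HORVU1Hr1G088870, HORVU1Hr1G088880, HORVU1Hr1G088920 and HORVU1Hr1G089180 are consecutive in the list and all fell in 10_11, the longest run of neighbours changing the same way.

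**Figure D4:**
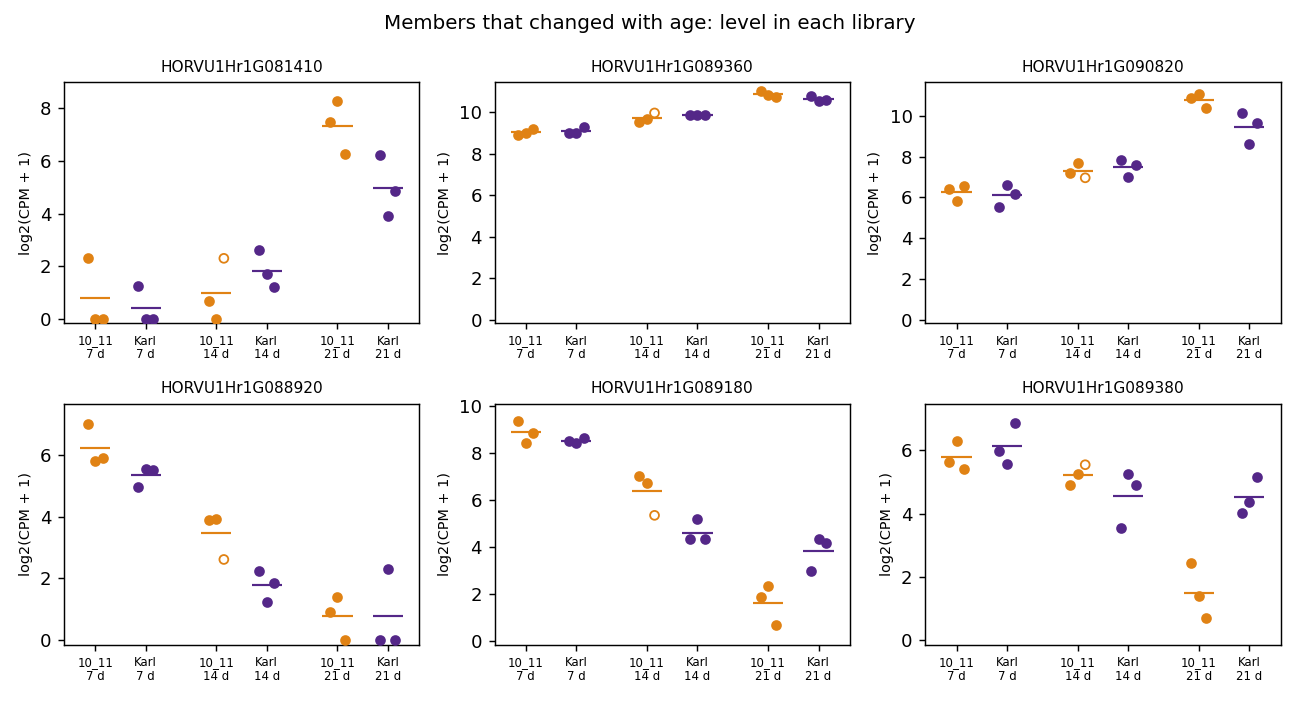
Level of 6 members that changed with age in each of the 18 libraries, as log2(CPM + 1), with 10_11 in orange left of Karl in purple on each day. Bars are means of the log2 values and the open circle is the 14 d library labelled 10_11 replicate C; the upper 3 members rose from 7 d to 21 d in both lines and the lower 3 fell in both.

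HORVU1Hr1G093220 fell in both lines. It had 0.879, 1.62 and 0.602 CPM at 21 d, against 32.3, 35.5 and 37.8 CPM at 7 d in 10_11, and 2.5, 6.83 and 1.11 CPM against 32.5, 42.5 and 54.2 CPM in Karl. The days did not overlap in either line. The log2 fold change was -5.02 ± 0.59 (edgeR adjusted p = 9.08e-06) in 10_11 and -3.46 ± 0.43 (edgeR adjusted p = 3.1e-05) in Karl, and -4.53 in Karl without Karl 21 d replicate B. HORVU1Hr1G089380, already described at 21 d, had a log2 fold change between 21 d and 7 d of -4.78 ± 0.64 (edgeR adjusted p = 3.33e-05) in 10_11, -5.68 without 10_11 21 d replicate A and -3.81 with thinned counts, and -1.68 ± 0.44 (edgeR adjusted p = 0.0111) in Karl. The fall in Karl was not called without Karl 7 d replicate 3 (edgeR adjusted p = 0.096) or Karl 21 d replicate A (0.0589). HORVU1Hr1G076120 had 0, 2.43 and 1.2 CPM at 21 d, against 4.04, 15.2 and 61.8 CPM at 7 d in 10_11, a log2 fold change of -4.12 ± 1.27 (edgeR adjusted p = 0.0208) that was -3.00 without 10_11 7 d replicate 3 and -4.83 without 10_11 21 d replicate B. Its 7 d libraries were widely spread, and the call was lost without 10_11 7 d replicate 3 (edgeR adjusted p = 0.132), 10_11 21 d replicate A (0.0579) or replicate C (0.0582).

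HORVU1Hr1G075830 and HORVU1Hr1G089760 were among the steepest falls in Karl and fell in 10_11 too. HORVU1Hr1G075830 had 6.88, 10.1 and 11.1 CPM at 21 d, against 33.9, 68.3 and 83.7 CPM at 7 d in Karl, a log2 fold change of -2.69 ± 0.49 (edgeR adjusted p = 0.000896), and -2.84 ± 0.52 (edgeR adjusted p = 0.000484) in 10_11. HORVU1Hr1G089760, the second most abundant member, had 274, 235 and 87.9 CPM at 21 d in 10_11, against 1263, 1256 and 958 CPM at 7 d. In Karl it had 303, 438 and 270.4 CPM at 21 d, against 1953, 783 and 1097 CPM at 7 d. The days did not overlap in either line, and the log2 fold change was -2.55 ± 0.41 (edgeR adjusted p = 0.000165) in 10_11 and -1.92 ± 0.40 (edgeR adjusted p = 0.00236) in Karl.

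HORVU1Hr1G078140, the fifth most abundant member, had 259, 410.1 and 292 CPM at 21 d, against 805, 664 and 439 CPM at 7 d in 10_11. In Karl it had 438, 517 and 424 CPM at 21 d, against 911, 436 and 689.6 CPM at 7 d. It fell in 10_11, at a log2 fold change of -0.99 ± 0.26 (edgeR adjusted p = 0.00751), and was not called in Karl, at -0.56 ± 0.26 (edgeR adjusted p = 0.127). The difference between the lines was not called (edgeR adjusted p = 0.822), and neither was the fall in 10_11 without 10_11 7 d replicate 1 (0.0548). The first member, HORVU1Hr1G075000, and the last, HORVU1Hr1G095430, were called in none of the comparisons between 21 d and 7 d, with log2 fold changes in 10_11 of -0.72 and 0.17 and in Karl of -0.69 and 0.50.

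Along the identifier order, members that rose and members that fell were mixed, in uneven shares. In 10_11 between 21 d and 7 d, 12 rose and 18 fell of the 78 members from HORVU1Hr1G075000 to HORVU1Hr1G079930, and 15 rose and 5 fell of the 75 from HORVU1Hr1G080040 to HORVU1Hr1G084970. From HORVU1Hr1G085170 to HORVU1Hr1G089840, 5 rose and 13 fell of 64. Of the next 76 members 9 rose and 9 fell, and of the last 11 members 1 rose and 2 fell. In Karl the same stretches held 10 rising and 14 falling, 11 and 5, 8 and 7, 7 and 10, and 0 and 1. The difference between stretches was not tested.

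Runs of neighbouring members called the same way held at most 4 members. Runs among other genes were not counted, so whether these are particular to this stretch was not tested. In 10_11, 12 rising members lay in 6 runs of 2, and 17 falling members lay in 6 runs of up to 4. In Karl, 6 rising members lay in 3 runs of 2, and 7 falling members in 3 runs of up to 3, the longest from HORVU1Hr1G090490 to HORVU1Hr1G090740. Both lines shared the rising pairs HORVU1Hr1G081410 with its next neighbour HORVU1Hr1G081470 and HORVU1Hr1G093890 with HORVU1Hr1G093950, and the falling pair HORVU1Hr1G088920 and HORVU1Hr1G089180. Near-identical neighbours could share reads in counting, and sequences of these genes were not used here.

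The lines' changes with age were compared directly by the difference of the log2 fold changes, 10_11 minus Karl. EdgeR called 0 members for 14 d over 7 d, 0 for 21 d over 14 d and 0 for 21 d over 7 d, where 0.01%, 0% and 0% of all genes were called. An unadjusted p under 0.05 was reached by 23, 38 and 28 members (7.57%, 12.5% and 9.21%, against 5.73%, 10.8% and 7.74% of all genes). DESeq2 called 0, 6 and 2 of the 304, 127 and 77 members to which it gave an adjusted p, against 0.022%, 1.76% and 1.5% of all genes with one. The 6 that DESeq2 called for 21 d over 14 d were HORVU1Hr1G075560, HORVU1Hr1G081240, HORVU1Hr1G082010, HORVU1Hr1G089180, HORVU1Hr1G089380 and HORVU1Hr1G092670, and the 2 for 21 d over 7 d were HORVU1Hr1G075560 and HORVU1Hr1G089180.

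HORVU1Hr1G089180 came nearest in the edgeR test of 21 d over 14 d. Its log2 fold change between those days was -5.28 ± 0.58 (edgeR adjusted p = 3.64e-05) in 10_11 and -0.73 ± 0.44 (edgeR adjusted p = 0.522) in Karl, and the difference was -4.55 ± 0.75 (edgeR adjusted p = 0.0965). The difference was called without the 14 d library labelled 10_11 replicate C, at -4.91 ± 0.65 (edgeR adjusted p = 0.0053), where 0.0867% of all genes were called, without Karl 14 d replicate B (edgeR adjusted p = 0.0441) and without Karl 21 d replicate A (0.032). Without the library labelled replicate C it was also higher in 10_11 at 14 d, at 2.24 ± 0.37 (edgeR adjusted p = 0.00251), and lower at 21 d, at -2.67 ± 0.54 (edgeR adjusted p = 0.0147).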

How the data were processed

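MARS-seq was run on 18 flag leaf libraries, and the group of each came from its title. The authors deposited a table of 13626 genes, of which only the raw columns were used. They hold whole-number counts per gene and library, per the file headers. The tools named in the submitters' processing notes are bcl2fastq, cutadapt, STAR 2.4.2a, HTSeq and DESeq2. For the genome build, annotation, strand setting and molecular identifiers, the choices made were not given in the sources used here. Counts may thus include amplification copies, counting intervals cover counting error only, and reads of near-identical or overlapping genes may be split.

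Libraries held 353982 to 3231258 counts. Counts were tested in R 4.3.3 by the two-sided quasi-likelihood test of edgeR 4.0.16. The fit held all 18 libraries and a mean for every combination of line and day, with TMM scaling and filterByExpr by group, which kept 9973 genes and left 12 residual degrees of freedom. P-values were adjusted by Benjamini-Hochberg over all genes tested and called under 0.05. A standard error is the size of the log2 fold change over the square root of F. Ratios on 1 to 3 counts in the lower group have a 95% interval by an exact binomial test. Chi-square comparisons found no replicates within sampling noise of each other.

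Members are chromosome 1H identifiers from serial number 75000 with at least 180 counts in all. Members, lists and tests were chosen with earlier results of these data known. Named for the lines was each member called on a day or over the 3 days, at most 25. Named for age were, per line and direction, the 6 called members that changed most between 21 d and 7 d, provided that the higher day reached 20 CPM and the days did not overlap. The 5 most abundant members and the first and last were named too. Further members (edges, runs, calls in other fits) were named after their values were seen, and so was the check of the 14 d library labelled 10_11 replicate C chosen. None of the identifiers (0) matched the RefSeq genes, so no list by function was applied and no sequence is shown. Alternatives were DESeq2 size factors, DESeq2 1.42.0, no filter, the compared groups alone, a replicate block, each library left out and, added after the data were seen, counts thinned to 353982.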

Additional observations from a re-analysis of the deposited data

How the results depend on the processing

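None of the 42 named values, each picked because it was called, changed direction under any alternative. Scaling by DESeq2 size factors kept the count of members called within 1.5 times for each comparison. Leaving out 1 library at a time gave these ranges of members called: 0 to 3 for the lines at 7 d, 0 to 13 at 14 d, 0 to 12 at 21 d and 8 to 18 over the 3 days, 1 to 7 for 10_11 14 d over 7 d, 41 to 58 for 21 d over 14 d and 65 to 92 for 21 d over 7 d, 17 to 51, 0 to 10 and 52 to 87 for the same intervals in Karl, and 0 to 1 for the difference of the lines' changes from 14 d to 21 d. DESeq2 called 3 members for the lines at 7 d, 8 at 14 d, 13 at 21 d and 18 over the 3 days. Over all genes it called 32, 87, 292 and 227. For Karl 21 d over 14 d it called 14 members and 255 of all genes. For the difference of the lines' changes it called 6 members (63 of all genes) for 21 d over 14 d and 2 (34) for 21 d over 7 d. The counts under the other settings of this section are given for members only, so they do not show how other genes shifted. With the compared groups alone, 3 members were called for the lines at 7 d and 32 for 10_11 21 d over 14 d, and with no filter 2 for Karl 21 d over 14 d. Thinned counts gave 1 member for the lines at 21 d, 4 over the 3 days, and 21, 3 and 42 in Karl for 14 d over 7 d, 21 d over 14 d and 21 d over 7 d. Deviations of same-labelled libraries of the lines on a day correlated at r = -0.159 to 0.327. Those of same-labelled 14 d and 21 d libraries of a line correlated at r = -0.324 to 0.167. Differently labelled libraries were not compared, so these values do not settle whether the labels pair the samples. With a replicate block, 2 members were called for the lines at 7 d, 12 at 14 d, 7 at 21 d and 12 over the 3 days, 49 for 10_11 and 0 for Karl for 21 d over 14 d, and 0 for the difference of the lines' changes in that interval. HORVU1Hr1G088280 at 21 d (edgeR adjusted p = 0.0846) and over the 3 days (0.0796), HORVU1Hr1G087330 (0.0727) and HORVU1Hr1G094070 (0.0699) were not called between the lines with it. The other age comparisons had no block because the labels at 7 d differ from the later ones. Of 42 named values, the call was lost in 78 of 964 values under alternatives. The cause of these shifts was not tested. The shallow 7 d libraries limit what that day can show.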
